A study of Mus musculus with 6 samples.

Results

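The mu class glutathione transferases of mouse are 7 genes, Gstm1 to Gstm7, chosen here by name as a complete family out of 54532 gene identifiers in each library. All 7 were found in the files, and all 7 passed the filter on low values. The family was picked with earlier results of these livers in view, so its differences between genotypes are a description. No p-value is given for a member, and counts of members past a threshold stand beside the share of all genes tested, with nothing read from them. RNA was sequenced from untreated livers labelled LKO (liver-specific knockout of Arid2) and from untreated wild-type livers labelled WT, with 3 libraries in each group. The sources used here give no strain, age or sex, no transgene that drives the deletion, and no statement that each library came from a separate animal. ARID2 belongs to PBAF, a complex that remodels chromatin, and the series title links it to hepatic steatosis and the kinase JAK2.

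Glutathione transferases join the tripeptide glutathione to electrophilic compounds, which makes drugs, toxins and lipid peroxidation products more water soluble and ready for export. The mu class enzymes are soluble proteins that work as dimers, and they are among the abundant detoxification enzymes of the rodent liver. Several of their genes are known to respond to the oxidative stress factor NRF2 and to the xenobiotic receptor CAR. GST expression in liver is also known to vary along the lobule and between the sexes.

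The values are FPKM, which are read counts per length of exon and per unit of a library scale that the authors set. Reads recovered from the steps of these values summed to between 13947787 and 18159285 in LKO libraries and between 16140525 and 17312282 in WT libraries. The replicate 1 libraries of both groups stood apart from the other 4, with 2368 (LKO) and 2003 (WT) genes at 1 to 5 reads, against 3913 to 4263 in the others. Mitochondrially encoded genes made up 27.6%, 7.72% and 4.76% of LKO reads in replicates 1 to 3, against 20.7%, 10.2% and 18.5% of WT reads. Arid2 itself was at 2.55, 1.33 and 2.04 FPKM in the libraries labelled LKO, against 2.65, 1.74 and 1.79 FPKM in those labelled WT. These are sums over the whole gene and did not separate the groups, so they do not check the labels, and LKO and WT below are the labels of the libraries.

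The family sits in 1 cluster on chromosome 3 (mm10, GENCODE vM21), between positions 107895821 and 108044894, a span of 149 kb. In the order of increasing position the genes are Gstm5 (107895821 to 107898686, plus strand), Gstm7 (107926334 to 107931817), Gstm6 (107938847 to 107943749), Gstm3 (107963696 to 107969283), Gstm2 (107981702 to 107986453), Gstm1 (108012255 to 108017973) and Gstm4 (108040408 to 108044894). Gstm5 is the one gene on the plus strand, and the other 6 are on the minus strand. Each main coding transcript has 8 exons. The coding sequence is 672 bases long in Gstm5 and 654 in each of the others.

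These genes are close copies, which bears on how far reads can be assigned to 1 of them. The stretch below shows this in 90 bases of the annotated coding sequences (GENCODE vM21 transcripts, 5′ to 3′), at bases 130 to 219 in Gstm5 and 121 to 210 in the other 6, with capitals at each base that differs from Gstm1.
Gstm1: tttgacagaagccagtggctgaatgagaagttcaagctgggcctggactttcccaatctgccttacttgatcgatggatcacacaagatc
Gstm2: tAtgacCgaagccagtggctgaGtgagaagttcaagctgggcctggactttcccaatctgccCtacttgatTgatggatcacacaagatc
Gstm3: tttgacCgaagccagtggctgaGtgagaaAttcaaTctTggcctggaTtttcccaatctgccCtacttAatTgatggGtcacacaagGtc
Gstm6: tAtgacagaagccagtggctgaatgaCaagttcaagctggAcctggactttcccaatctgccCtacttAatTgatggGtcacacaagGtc
Gstm4: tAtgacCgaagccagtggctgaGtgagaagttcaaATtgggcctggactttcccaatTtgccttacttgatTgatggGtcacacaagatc
Gstm7: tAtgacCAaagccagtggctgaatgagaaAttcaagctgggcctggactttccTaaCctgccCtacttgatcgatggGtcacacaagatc
Gstm5: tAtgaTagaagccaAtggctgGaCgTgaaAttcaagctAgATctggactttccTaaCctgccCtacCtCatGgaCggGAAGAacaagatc
In this stretch Gstm2 differed from Gstm1 at 5 bases, Gstm4, Gstm6 and Gstm7 at 8 bases each, Gstm3 at 11 and Gstm5 at 22. Over the whole coding sequence Gstm3 was the nearest copy of Gstm1, with 89.4% of aligned bases identical, although the stretch alone does not show it. Gstm5 was the most distant member, with 69.9% to 72.6% identity to the other 6. The pairs without Gstm5 lay between 79.1% (Gstm3 and Gstm4) and 89.4%.

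**Figure D1:**
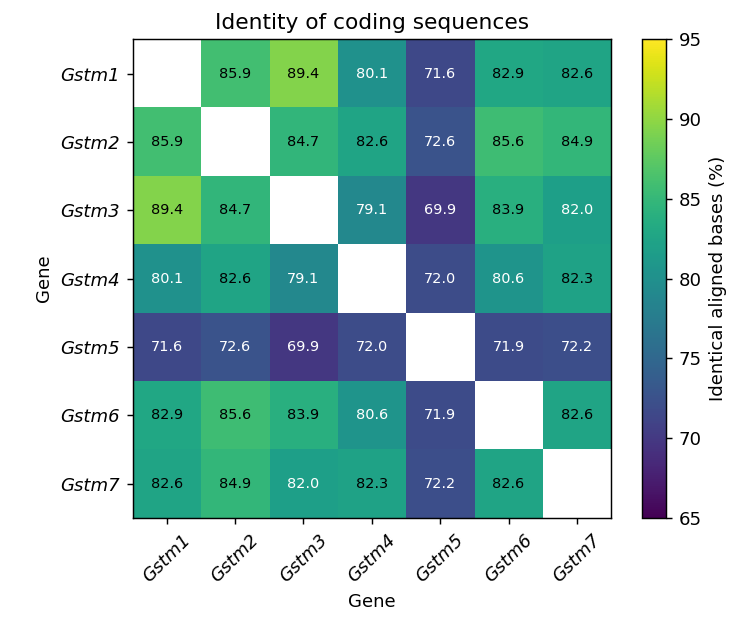
Percent of identical bases between aligned coding sequences for each pair of mu class genes, both axes listing the 7 genes. Gstm1 and Gstm3 are the closest pair at 89.4%, and the row of Gstm5 is the lowest, between 69.9% and 72.6%.

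How much of each transcript could be confused with another gene depends on the length of the sequenced piece, a length not given in the sources used here. Of the distinct windows of 100 bases in the annotated transcripts of Gstm3, 13.8% were also in a transcript of another gene, the highest share of the family. It was 5.86% for Gstm1, 5.58% for Gstm5, 1.10% for Gstm6 and 0.357% for Gstm2, and no such window was found for Gstm4 or Gstm7. With windows of 50 bases the shares were 28.8% for Gstm3 and 18.9% for Gstm1, and with windows of 150 bases they were 3.44% for Gstm3 and 0% for Gstm1. Gstm3 shared most with the processed pseudogene Gm8834 (7.43% of its 100-base windows), then with the processed pseudogene Gstm2-ps1 (3.22%), with Gstm6 (2.15%) and with Gstm1 (1.65%). The windows of Gstm5 were all shared with 4933431E20Rik, a transcript annotated on the opposite strand over its 5′ end, which stayed at or below 0.259 FPKM in every library. The treatment of reads with several matches was not given in the sources used here, and these shares do not bound the error it could leave. Gstm1 was at a far higher level than the other members, so a small share of its reads counted elsewhere could be large beside the level of a low member such as Gstm3.

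Summed over the 7 genes, mu class transcript was lower in LKO livers. The sum was 1077, 1144 and 827 FPKM in LKO replicates 1 to 3, against 1469, 1376 and 1686 FPKM in WT replicates 1 to 3. Every LKO library lay below every WT library, and the mean in LKO was 0.673 of that in WT. The family took 0.131% to 0.158% of all reads in LKO libraries and 0.211% to 0.250% in WT libraries. In these bulk samples fewer expressing cells and less RNA per cell cannot be told apart.

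Members differed from each other in size and direction. LKO minus WT, the difference in log2(FPKM + 1) was below 0 for 6 of 7 members and above 0 for Gstm5. The median over the members was -0.55, against 0.03 over the 11672 genes tested. Every LKO library lay below every WT library for 3 members, Gstm1, Gstm3 and Gstm6, as for 7.42% of genes tested. Every LKO library lay above every WT library for 1 member, Gstm5, as for 8% of genes tested. Together these 4 members had groups that did not overlap, as had 15.4% of genes tested. By limma-trend with Benjamini-Hochberg adjustment over all genes tested, 0 of 7 members were called, where 0.0428% of genes tested were called (0.00857% higher and 0.0343% lower in LKO). Of the members 4 had an unadjusted p under 0.05, as did 9.22% of genes tested. They are not the 4 without overlap, as they include Gstm2 and not Gstm1. Voom called 0 members, and over all genes tested it called 1 higher and 5 lower in LKO.

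**Figure D2:**
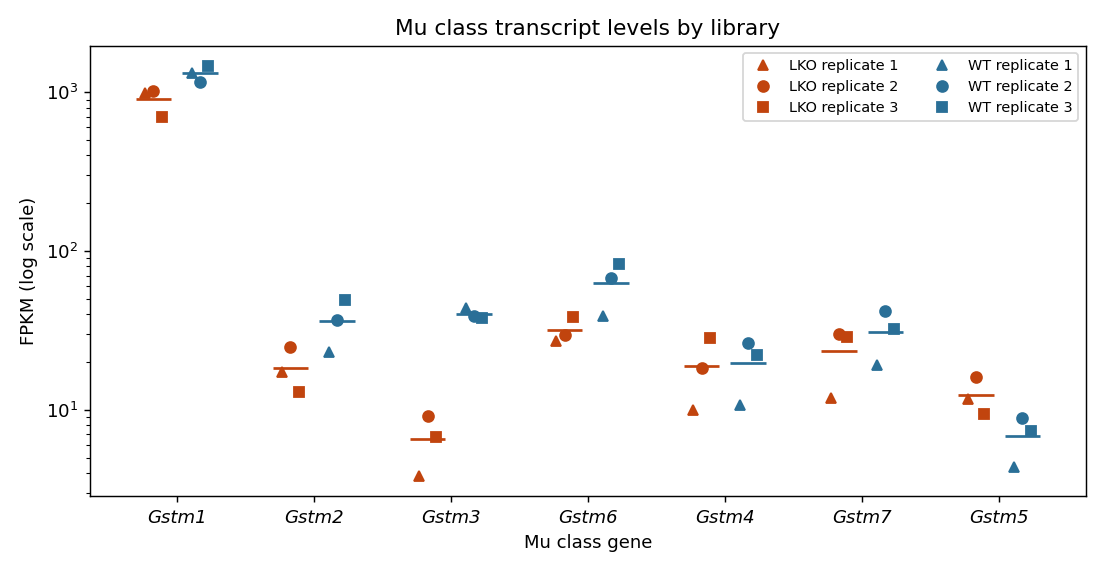
FPKM of each mu class gene on a log axis, LKO at the left and WT at the right of each gene, with 1 symbol per library by replicate number and a bar at the mean of 3 libraries. Gstm1 lies above all others at 703 to 1455 FPKM, Gstm3 is separated most widely between the groups, and Gstm5 is higher in LKO.

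Gstm1 encodes the main mu class enzyme of mouse liver, and it made up most of the family's transcript in every library. Its levels were 995, 1017 and 703 FPKM in LKO replicates 1 to 3, against 1329, 1155 and 1455 FPKM in WT replicates 1 to 3. The groups did not overlap, although the highest LKO library and the lowest WT library were close. The means were 905 ± 176 FPKM in LKO and 1313 ± 151 FPKM in WT (SD, n = 3 each), a log2 difference of -0.55 ± 0.34 (SE). Gstm1 was 84.9% to 92.4% of the family's summed FPKM in LKO and 83.9% to 90.5% in WT, so its share overlapped between the groups while its level did not. The other 6 genes together summed to 81.9, 127 and 125 FPKM in LKO, against 140, 221 and 231 FPKM in WT.

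Gstm3, whose product conjugates glutathione as that of Gstm1 does and which is known to be inducible in liver, had the lowest levels of the family in LKO livers. Its levels were 3.84, 9.12 and 6.75 FPKM in the LKO libraries (64, 187 and 168 reads), against 43.7, 39.2 and 38.0 FPKM in WT replicates 1 to 3 (1105, 903 and 778 reads). The WT libraries were close together, and the highest LKO library was far below the lowest of them. The means were 6.57 ± 2.65 FPKM in LKO and 40.3 ± 3.03 FPKM in WT (SD, n = 3 each), 6.13-fold lower in LKO, with a log2 difference of -2.51 ± 0.32 (SE). The log2 difference lay between -2.75 and -2.22 when any 1 library was left out, and it was -2.16 without both replicate 1 libraries. In mean level Gstm3 came after Gstm1 and Gstm6 in WT, and it came last in LKO.

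Gstm2 and Gstm6, both mu class transferases, were lower in LKO by similar amounts. Gstm6 was at 27.1, 29.5 and 38.6 FPKM in LKO, against 38.8, 68.0 and 82.5 FPKM in WT. The groups only just failed to meet, at LKO replicate 3 and WT replicate 1. The means of Gstm6 were 31.7 ± 6.05 FPKM in LKO and 63.1 ± 22.2 FPKM in WT (SD, n = 3 each), a log2 difference of -0.92 ± 0.36 (SE). Gstm2 was at 17.2, 24.7 and 12.9 FPKM in LKO, against 23.3, 36.8 and 49.1 FPKM in WT. Its groups overlapped by 1 library, since LKO replicate 2 lay above WT replicate 1, and they did not overlap when libraries were scaled to their read sums. The means of Gstm2 were 18.3 ± 5.97 FPKM in LKO and 36.4 ± 12.9 FPKM in WT (SD, n = 3 each), a log2 difference of -0.94 ± 0.38 (SE). Without both replicate 1 libraries the log2 differences were -1.13 for Gstm6 and -1.20 for Gstm2.

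Gstm4 and Gstm7, further mu class transferases, were lowest in the replicate 1 library of each group, as was Gstm6. Gstm2 and Gstm5 were lowest in replicate 1 of WT but in replicate 3 of LKO. Gstm4 had 10.01, 18.2 and 28.5 FPKM in LKO replicates 1 to 3, against 10.8, 26.5 and 22.02 FPKM in WT replicates 1 to 3. Gstm7 was at 11.9, 29.9 and 28.6 FPKM in LKO, against 19.1, 41.8 and 32.2 FPKM in WT. For both genes the groups overlapped, and without the replicate 1 libraries those of Gstm7 did not. The log2 difference of Gstm4 was -0.09 ± 0.47 (SE), and it lay between -0.45 and 0.28 when 1 library was left out, so its sign was not stable. That of Gstm7 was -0.43 ± 0.45 (SE), between -0.73 and -0.02 with 1 library left out. The pseudogene Gstm2-ps1 on chromosome 5 was also lowest in both replicate 1 libraries, at 8.63, 17.4 and 15.1 FPKM in LKO and 9.0, 28.0 and 20.2 FPKM in WT. The replicate 1 libraries are those with the highest mitochondrial share of their group, and the part of this in the levels of the members was not tested.

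Gstm5, known in rodents mainly from brain and testis, was the one member that was higher in LKO livers. Its levels were 11.8, 16.0 and 9.39 FPKM in the LKO libraries (191, 320 and 228 reads), against 4.38, 8.85 and 7.36 FPKM in WT replicates 1 to 3 (108, 199 and 147 reads). The groups did not overlap but came close, at LKO replicate 3 and WT replicate 2, and with quantile normalization they overlapped. The means were 12.4 ± 3.36 FPKM in LKO and 6.87 ± 2.28 FPKM in WT (SD, n = 3 each), 1.80-fold higher in LKO, with a log2 difference of 0.78 ± 0.32 (SE). It lay between 0.53 and 0.97 when 1 library was left out.

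**Figure D3:**
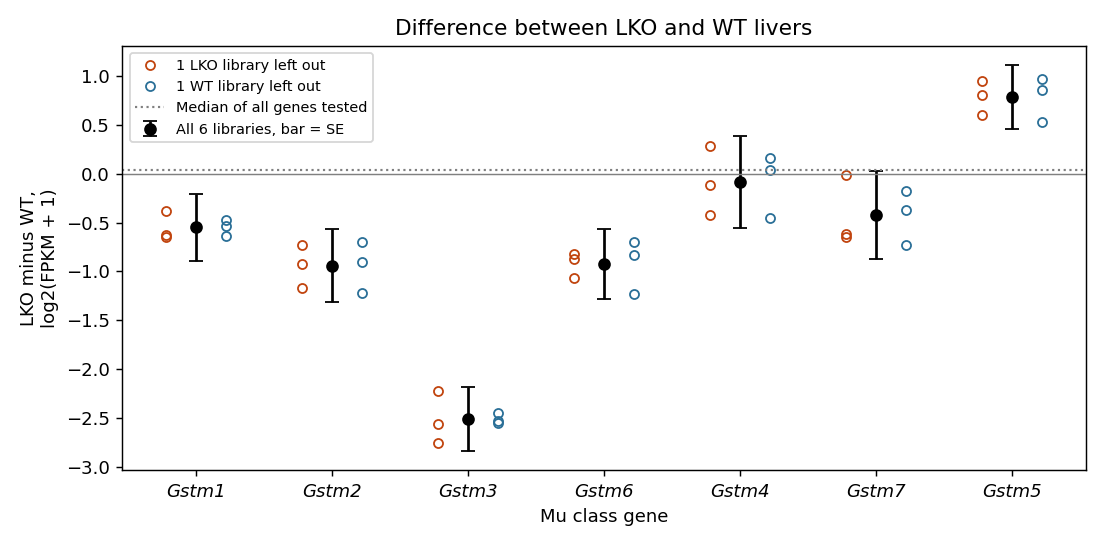
Log2 difference of each mu class gene, LKO minus WT, on the log2(FPKM + 1) scale (black, bar = SE), with open circles for the value without 1 LKO or 1 WT library and a dotted line at the median of all genes tested, 0.03. Gstm3 lies at -2.51 and Gstm5 at 0.78, and the open circles of Gstm4 fall on both sides of 0.

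Ratios within a library do not depend on how libraries are scaled against each other. Gstm3 was 0.386%, 0.897% and 0.960% of the FPKM of Gstm1 in LKO replicates 1 to 3, against 3.29%, 3.39% and 2.61% in WT replicates 1 to 3. Gstm5 was 1.18%, 1.58% and 1.34% of Gstm1 in LKO, against 0.330%, 0.766% and 0.506% in WT. Both ratios separated the groups, in opposite directions, whereas those of Gstm2, Gstm4, Gstm6 and Gstm7 to Gstm1 overlapped. Gstm3 was at 0.327, 0.570 and 0.718 of the FPKM of Gstm5 in LKO libraries, against 9.97, 4.42 and 5.16 times that of Gstm5 in WT libraries. The order of these 2 genes was therefore opposite in the 2 groups, in every library. These ratios are unequal changes within the family and do not say that Gstm1 stayed constant.

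**Figure D4:**
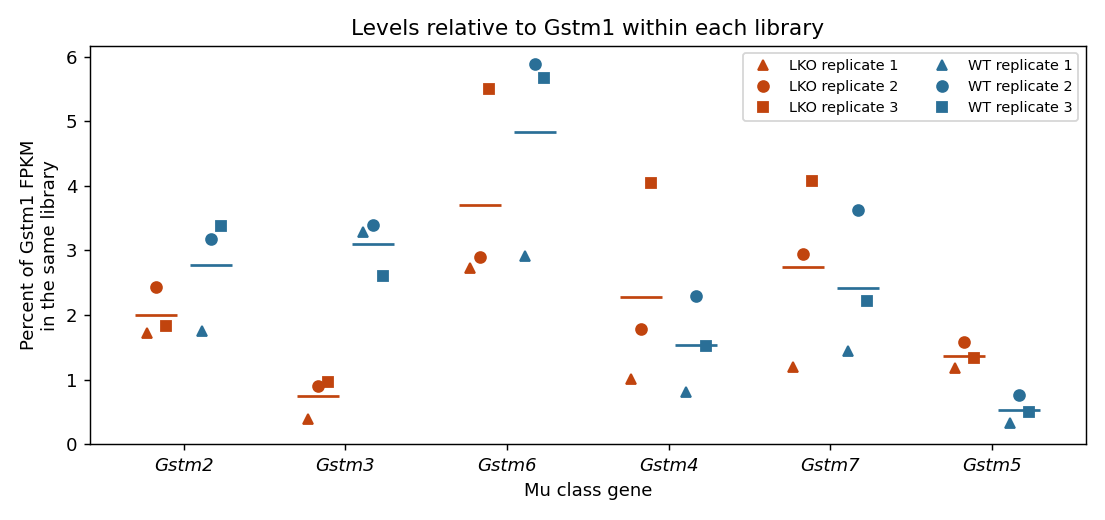
FPKM of each other mu class gene as a percent of Gstm1 in the same library, LKO at the left and WT at the right, with 1 symbol per library and a bar at the mean of 3. Gstm3 is below 1% in all LKO libraries and at 2.61% to 3.39% in WT, and Gstm5 is above 1% in all LKO libraries and at most 0.766% in WT.

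Because FPKM are per length, the members can be ranked within a group. In LKO the order of mean FPKM was Gstm1, Gstm6, Gstm7, Gstm4, Gstm2, Gstm5 and Gstm3. In WT it was Gstm1, Gstm6, Gstm3, Gstm2, Gstm7, Gstm4 and Gstm5. The top gene and the bottom gene stood clear of their neighbour in all 3 libraries of each group, and the ranges of the 5 genes between them overlapped from each neighbour to the next.

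Genes that flank the cluster had log2 differences near 0. Of 7 other tested genes within 200 kb, 0 were called by limma and 0 by voom, 0 had an unadjusted p under 0.05, and in each the groups overlapped. On the side of Gstm5, Csf1, the macrophage growth factor, had a log2 difference of 0.01 ± 0.43 (SE; limma adjusted p = 0.998), and Ahcyl1, a regulator of calcium release, of 0.15 ± 0.23 (SE; limma adjusted p = 0.903). On the side of Gstm4, Ampd2, an AMP deaminase, had -0.04 ± 0.31 (SE; limma adjusted p = 0.987) and Gnai3, an inhibitory G protein subunit, had 0.21 ± 0.35 (SE; limma adjusted p = 0.910). Amigo1, Cyb561d1 and Atxn7l2 lay between -0.20 and -0.09. These genes and Csf1 averaged at most 2.11 FPKM in either group, a level at which log2(FPKM + 1) understates differences.

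**Figure D5:**
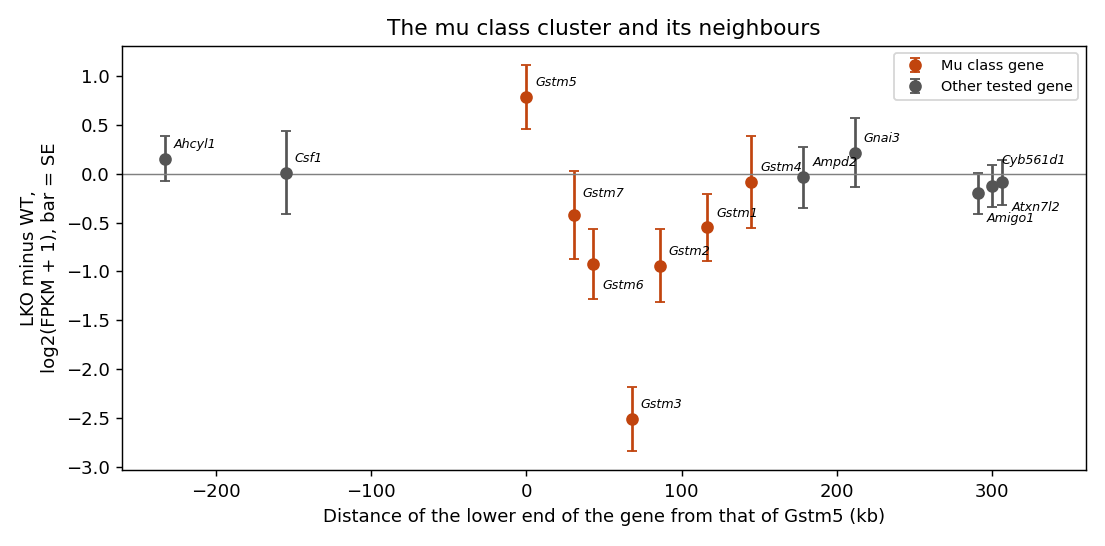
Log2 difference, LKO minus WT, on the log2(FPKM + 1) scale (bar = SE) for each tested gene within 200 kb of the cluster, by distance in kb of its lower end from that of Gstm5. Flanking genes lie between -0.20 and 0.21, and members of the cluster between -2.51 and 0.78.

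Promoters of the 2 members with opposite directions are shown because Gstm3 has the lowest and Gstm5 the highest log2 difference of the family. Each runs from 250 bases before to 50 bases after the gene start annotated by RefSeq (GRCm38.p6, the assembly of mm10), in which all 7 members had an entry. Searched on both strands were the core of the antioxidant response element bound by NRF2 (TGACNNNGC), the core of the TCF/LEF site of Wnt signalling (CTTTGA), the inverted repeat of STAT factors (TTCNNNGAA) and a direct repeat of the kind bound by CAR (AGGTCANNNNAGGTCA), and capitals mark matches. Gstm3 is on the minus strand at chr3:107969125-107969424 and Gstm5 on the plus strand at chr3:107895604-107895903.
Gstm3: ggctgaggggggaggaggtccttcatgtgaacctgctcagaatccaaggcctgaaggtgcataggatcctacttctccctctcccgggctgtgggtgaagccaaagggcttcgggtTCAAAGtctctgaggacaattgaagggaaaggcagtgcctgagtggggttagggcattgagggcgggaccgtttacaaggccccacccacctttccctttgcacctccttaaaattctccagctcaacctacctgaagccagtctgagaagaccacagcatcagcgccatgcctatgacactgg
Gstm5: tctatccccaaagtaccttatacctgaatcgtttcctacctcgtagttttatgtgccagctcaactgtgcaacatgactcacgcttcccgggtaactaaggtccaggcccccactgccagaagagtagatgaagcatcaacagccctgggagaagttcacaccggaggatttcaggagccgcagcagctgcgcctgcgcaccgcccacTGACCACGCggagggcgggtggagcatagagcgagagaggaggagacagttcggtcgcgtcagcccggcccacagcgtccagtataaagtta
The Gstm3 window held 1 match, to the TCF/LEF core, on the opposite strand at bases -134 to -129 from the start, and 16.0% of 32851 annotated promoter windows of the same length hold this core. The Gstm5 window held 1 match, to the antioxidant response element core, on its own strand at bases -42 to -34, and 12.4% of all windows hold it. No match to these 4 motifs was in the 1 window read for each of the other 5 members. For every member this was the window whose start lay nearest the GENCODE start. Gstm1, Gstm4 and Gstm7 had 2 listed windows and Gstm6 had 3, and matches in their other windows are not given. Positions count from the RefSeq start, which lies 109 bases from the GENCODE start for Gstm3 and 33 bases for Gstm5. The STAT repeat was in 8.30% and the direct repeat in 0.0152% of all windows. These matches describe letters in a window and not sites in use.

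Other genes of glutathione conjugation lay on both sides of 0, and none passed the test. Of 16 tested transferases of other classes, 0 rose and 0 fell by limma over all genes (0 by voom). An unadjusted p under 0.05 was found for 2 of them, as for 9.22% of all genes tested. Their median log2 difference was -0.04, against 0.03 over all genes tested. Gstt2, a theta class enzyme, was at 12.5, 6.88 and 4.78 FPKM in LKO, against 29.8, 33.7 and 31.5 FPKM in WT, with no overlap (log2 difference -1.94 ± 0.35 SE, limma adjusted p = 0.153). Gstp1, the abundant pi class enzyme of male mouse liver, was at 399, 527 and 340.0 FPKM in LKO, against 827, 1281 and 974 FPKM in WT (log2 difference -1.28 ± 0.36 SE, limma adjusted p = 0.320). Gstp1 has close copies in Gstp2 and Gstp3, and reads may be shared among them. Gstt1, another theta class enzyme, lay the other way, at 361, 341 and 263 FPKM in LKO, against 111, 229 and 252 FPKM in WT (log2 difference 0.77 ± 0.40 SE, limma adjusted p = 0.628). Gsta2, of the alpha class, overlapped between groups (log2 difference -1.17 ± 0.59 SE, limma adjusted p = 0.609).

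Genes that make glutathione and that respond to NRF2 lay mostly above 0. Of 22 tested genes of glutathione synthesis and turnover, 0 rose and 0 fell by limma (0 by voom). An unadjusted p under 0.05 was found for 3 of them, as for 9.22% of all genes tested. Their median was 0.18, against 0.03 over all genes tested. Gclc, the catalytic subunit of the rate-limiting enzyme of glutathione synthesis, was at 159, 112 and 82.1 FPKM in LKO, against 32.0, 55.0 and 39.0 FPKM in WT (log2 difference 1.45 ± 0.36 SE, limma adjusted p = 0.281). Every LKO library was above every WT library. Gclm, the other subunit of that enzyme, overlapped between the groups (log2 difference -0.12 ± 0.37 SE, limma adjusted p = 0.955). In this list 16 genes were fitted above 0 and 6 below 0. Chac1, which degrades glutathione, had a log2 difference of 1.32 ± 0.44 (SE; limma adjusted p = 0.418), Glrx, a glutaredoxin, 0.80 ± 0.36 (SE; limma adjusted p = 0.566), and Ggt6, a gamma-glutamyltransferase family member, averaged 3.40 ± 2.08 FPKM in LKO and 7.27 ± 1.41 FPKM in WT (SD, n = 3 each; limma adjusted p = 0.463).

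Of 32 tested regulators and targets of NRF2, 0 rose and 0 fell by limma (0 by voom). An unadjusted p under 0.05 was found for 7 of them, as for 9.22% of all genes tested. In this list 24 lay above 0 and 8 below 0, and the median was 0.27, against 0.03 over all genes tested. Srxn1, a sulfiredoxin and known NRF2 target, was at 44.9, 56.3 and 12.9 FPKM in LKO, against 5.85, 5.97 and 6.33 FPKM in WT (limma adjusted p = 0.244). It passed without LKO replicate 3, the lowest of its group, as the 1 gene of these lists to do so when a library was left out. Maff, a small MAF protein that pairs with NRF2, was at 18.5, 12.1 and 18.3 FPKM in LKO, against 1.66, 4.14 and 4.24 FPKM in WT (limma adjusted p = 0.138). Hmox1, which degrades haem, and Txnrd1, a thioredoxin reductase, were likewise separated between the groups, with LKO above WT (limma adjusted p = 0.356 and 0.402). Of the 7 genes with an unadjusted p under 0.05, 2 lay the other way, with every LKO library below every WT library, and both were singled out after their values were seen. Mafg, another small MAF protein, was at 14.7, 6.998 and 15.1 FPKM in LKO, against 25.3, 19.5 and 21.7 FPKM in WT (limma adjusted p = 0.494). Adh7, an alcohol dehydrogenase, was at 8.79, 7.06 and 3.81 FPKM in LKO, against 11.03, 11.003 and 11.8 FPKM in WT (limma adjusted p = 0.510). Also fitted below 0, with groups that overlapped, were Nqo1, a known NRF2 target, and Nfe2l2, which encodes NRF2. Their log2 differences were -0.49 ± 0.40 and -0.17 ± 0.37 (SE; limma adjusted p = 0.788 and 0.931).

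Of 24 tested genes of CAR, PXR and AHR and their targets, 0 rose and 0 fell by limma (0 by voom). An unadjusted p under 0.05 was found for 4 of them, as for 9.22% of all genes tested. Their median was 0.45, against 0.03 over all genes tested. Ahr, the dioxin receptor, was at 9.08, 10.7 and 12.5 FPKM in LKO, against 4.51, 4.28 and 6.95 FPKM in WT (limma adjusted p = 0.339), and its target Tiparp was at 2.58, 5.81 and 2.28 FPKM in LKO, against 1.13, 1.28 and 1.26 FPKM in WT (limma adjusted p = 0.393). The P450 genes Cyp2c37 and Cyp2c55 lay in opposite directions (log2 difference 1.81 ± 0.67 and -0.79 ± 0.23 SE, limma adjusted p = 0.466 and 0.354). Both belong to the Cyp2c family, whose members share sequence. Of 8 tested transporters that export conjugates, 0 rose and 0 fell by limma (0 by voom), 1 had an unadjusted p under 0.05, Abcc6, and the median was -0.10. Abcc6 was at 17.2, 20.3 and 40.6 FPKM in LKO, against 64.2, 38.8 and 45.9 FPKM in WT (limma adjusted p = 0.507). Abcc2 and Abcc3, which export glutathione conjugates to bile and to blood, had limma adjusted p = 0.752 and 0.635, and Abcb1a had 0.608.

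Markers of cell types and of lobule position were read beside the family, and their part in its difference was not tested. Of all genes tested, 9.22% had an unadjusted p under 0.05, and the median log2 difference was 0.03. Albumin (Alb) was between 24010 and 44282 FPKM in the 6 libraries, as fits liver. Pericentral hepatocyte genes had a median log2 difference of 0.29 over 20 tested genes (0 called by limma and by voom, 3 with an unadjusted p under 0.05). They summed to 3042, 7565 and 7925 FPKM in LKO replicates 1 to 3, against 2207, 5723 and 6283 FPKM in WT. The replicate 1 library was thus far the lowest of each group. Those named by the smallest p were Cldn2, Rhbg, Oat and Slc1a2, all fitted above 0 (limma adjusted p = 0.403, 0.440, 0.466 and 0.608). Periportal genes had a median of -0.28 over 18 tested genes (0 called by limma and by voom, 3 with an unadjusted p under 0.05), with a summed level of 2821 to 5277 FPKM in LKO and 3939 to 4602 FPKM in WT. Among them Hsd17b6 and Uroc1 were fitted below 0 and Ctsc and G6pc above 0 (limma adjusted p = 0.375, 0.609, 0.494 and 0.497). The 12 hepatocyte genes had a median of -0.13 and summed to 48215 to 66408 FPKM in LKO and 45159 to 58393 FPKM in WT (0 called by limma and by voom, 2 with an unadjusted p under 0.05). The first by p did not share the sign of that median, since Fgb, Tat and Hnf4a were higher in every LKO library (log2 difference 1.13, 0.98 and 0.52, limma adjusted p = 0.504, 0.525 and 0.695). Foxa2 overlapped between the groups (log2 difference -0.31, limma adjusted p = 0.866).

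Summed markers of other cell types overlapped between the groups in each list. Kupffer cell markers summed to 29.2 to 77.9 FPKM in LKO and 28.5 to 71.5 in WT, sinusoidal endothelial markers to 22.8 to 55.4 in LKO and 38.0 to 48.6 in WT, and stellate cell markers to 26.2 to 39.7 in LKO and 28.6 to 32.8 in WT. Cholangiocyte markers summed to 9.44 to 31.7 FPKM in LKO and 15.0 to 25.3 in WT. Leukocyte markers summed to 15.0, 11.4 and 5.90 FPKM in LKO replicates 1 to 3, against 4.26 to 7.92 in WT, so that replicates 1 and 2 of LKO lay above all WT libraries. Members of that list went opposite ways. S100a8, a calcium-binding protein of neutrophils, was at 4.65, 2.21 and 0.683 FPKM in LKO, against 0.374, 0.410 and 0.369 FPKM in WT (limma adjusted p = 0.436), and its partner S100a9 was at 7.54, 5.76 and 1.61 FPKM in LKO, against 1.19, 0 and 2.45 FPKM in WT (limma adjusted p = 0.4997). Trbc2, a T cell receptor constant region, was at 0.455, 0.740 and 0.761 FPKM in LKO, against 2.40, 1.23 and 1.67 FPKM in WT (limma adjusted p = 0.371). No gene of these lists was called by limma or voom, and 10 of 13 markers of pancreas, fat, muscle and kidney were listed at 0 in every library. Their sum of 749 to 1188 FPKM in LKO and 531 to 1579 FPKM in WT was nearly all Car3, a carbonic anhydrase that mouse liver is known to express. Cela1, also in that list, was at 1.95, 2.39 and 2.85 FPKM in LKO, against 3.17, 7.37 and 13.5 FPKM in WT (limma adjusted p = 0.445).

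The genes whose level over the 6 libraries was most like that of the family were found by Pearson's r on the log2(FPKM + 1) scale, given as a description. The points share their libraries and split into the same groups, so a high r partly restates the difference between groups. For the family's sum the first was Gamt, which makes creatine (r = 0.985, Spearman's rho = 1.00, 6 libraries), at 247, 247 and 176 FPKM in LKO, against 328, 277 and 361 FPKM in WT. It was followed by Bmyc, Gm2011, Gm27003 and Gm9396 (r between 0.973 and 0.981, rho = 0.943 each), all at most 3.71 FPKM in any library. Outside the family 18 genes had r above 0.95. For Gstm3 the 5 were Kdf1, Gm7463, Cdhr5, Gm30025 and Haus7 (r between 0.980 and 0.993, rho between 0.771 and 0.943), and 51 genes had r above 0.95. Of these Cdhr5, a brush border protocadherin, was at 0.747, 2.03 and 0.711 FPKM in LKO, against 32.6, 28.0 and 28.4 FPKM in WT.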

How the data were processed

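Liver RNA of LKO and WT mice was measured in 6 libraries, with groups and replicate numbers taken from the sample titles. Per the labels' protocols, 1 μg of total RNA entered a NEBNext Ultra preparation. Build mm10 and the tools DESeq2 1.20.0, featureCounts 1.5.0-p3, HISAT2 2.0.5 and CASAVA come from the submitters' processing notes, which here give no role for each. The authors deposited 1 table per library, and the FPKM unit was read from the values. FPKM multiplied by merged exon length (GENCODE vM21, 54495 of 54532 identifiers) gave reads, whole within 0.05 for 96.1% to 96.4% of values above 0. A transcript of 1 kb with 3 reads had 0.156 to 0.236 FPKM, a floor for counting error only.

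Limma-trend (limma 3.58.1, R 4.3.3) was fitted to log2(FPKM + 1) of the 11672 genes that averaged 0.5 FPKM or more, with genotype as the only term, robust empirical Bayes, Benjamini-Hochberg adjustment over all genes and a threshold of 0.05. It was also run on simulated reads with a fixed spread and no replicate 1 effect. That run does not show how the fit performs on these libraries. Log2 differences understate changes of low genes. The limma p-values set a difference against the spread between these libraries, pooled in part over genes by empirical Bayes. An exact permutation test of 1 gene cannot go under p = 0.1 here. Coding sequences, used in place of proteins, were aligned with Biopython 1.88. Figures used matplotlib 3.10.9.

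The members and gene lists were chosen with earlier results of these data known. Named were all members, Arid2, tested genes within 200 kb, up to 4 genes per pathway list by smallest limma p, and the 5 genes most like the family's sum and most like Gstm3. Gstm2-ps1, Gm8834 and 4933431E20Rik were named for shared sequence. Mafg, Adh7, Gclm, Nqo1 and Nfe2l2 were named after their values were seen, for lying below 0. Alternatives were other pseudocounts and filters, the replicate block, left-out libraries, other scalings, voom and array weights.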

Additional observations from a re-analysis of the deposited data

How the results depend on the processing

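The log2 difference of the family's sum was -0.58 and kept its sign throughout, between -0.67 and -0.44 with 1 library left out, -0.65 without both replicate 1 libraries and -0.70 with libraries scaled to their read sums. Of 105 member values under alternatives, 104 moved by less than 1 SD between replicates. That count includes the other filters and the replicate block, which cannot change a member's log2 difference, so it overstates stability. The exception was Gstm3 with array quality weights, at -2.12. That setting called Gstm3, Gstm5 and Gstm6, among 621 rising and 574 falling genes of 11672 tested. No other setting called a member. Over all genes in the main fit, 1 rose and 4 fell. The counts were 0 and 1 with no filter, 1 and 1 without both replicate 1 libraries, 0 and 3 with quantile normalization, and 621 and 574 with array quality weights. With 1 library left out, 0 to 13 rose and 0 to 4 fell. Each of the 6 libraries moved 1 or both of these counts by over 1.5 times when left out, and without WT replicate 3 there was no call. Among the 193 tested genes of the pathway lists, the 0 calls became 1 (Srxn1) without LKO replicate 3 and 0 without any other single library. They became 24 with array quality weights, where 621 and 574 of all 11672 genes were called. The cause of these shifts was not tested. With the replicate number as a block, 0 genes rose and 0 fell. In this balanced design the block cannot change a difference between groups, so the family's sum stays at -0.58 by construction. Same-numbered libraries correlated in their deviations from group means at 0.49, 0.30 and -0.02, and LKO replicate 3 and WT replicate 3 did not correlate best with each other, so the numbers were not taken to pair the samples. Of the members, Gstm3 had the fewest reads in LKO libraries, with 64 in replicate 1. Gstm5 had the fewest in WT libraries, with 108 in replicate 1.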
